A study of Homo sapiens with 4 samples.

Results

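The genes described here were those of 5S ribosomal RNA (5S rRNA), selected on their names and on their summed counts. A feature was a member when its GENCODE symbol was RNA5S with a number, RNA5SP or the generic name 5S_rRNA, and when its raw counts added up to at least 10 over the 4 libraries. Of 7062 small RNA features in the tables, 23 carried such a name and 19 were members. These were the 17 genes RNA5S1 to RNA5S17, which form a tandem array on chromosome 1, and the 2 dispersed copies RNA5SP150 and RNA5SP172. The symbols of these 2 copies are those of pseudogenes, but GENCODE gives both the type rRNA.

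The counts came from small RNA sequencing of total RNA from HEK293T cells, a human embryonic kidney line. The cells had been transiently transfected with 1.5 µg per well of a plasmid for the RNA polymerase II (Pol II) subunit RPB1, with 52 heptad repeats in its C-terminal domain. 52X WT carried wild-type repeats, and in 52X T4A alanine took the place of threonine at position 4. Each group had 2 libraries of single-end 50-bp reads, and both groups were kept for 72 h in 2.5 µg/ml α-amanitin, which selects for cells carrying the transfected RPB1, so neither group was untreated. Nothing in the labels ties the replicates to separate cultures, so p-values measure the spread between these libraries only. The counts assigned to features totalled between 16180790 and 27370127 per library.

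5S rRNA is a short RNA of the large ribosomal subunit. Unlike the other ribosomal RNAs, it is made by RNA polymerase III (Pol III), with the factor TFIIIA bound to a promoter that lies inside the transcribed sequence. Before it joins the ribosome it forms a particle with the ribosomal proteins RPL5 and RPL11, and the genome holds many pseudogenes derived from it.

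What the copies share decides which reads can be told apart. The sequences were compared in the GENCODE v44lift37 transcripts, matched by Ensembl identifier for 23 of the 23 names. Of the 17 array genes, 16 were identical in sequence, and RNA5S1 stands for them here. RNA5S9 differed from them by 1 substitution, which left exact stretches of 83 and 35 nt on either side. RNA5SP150 differed by 4 substitutions, had exact stretches of 59 and 35 nt in common with RNA5S1 and had an identity of 96.6%. RNA5SP172 was 78.3% identical to RNA5S1 and shared an exact stretch of 43 nt. A full-length read of 50 nt can therefore fit the array and RNA5SP150 alike when it lies within their common stretch of 59 nt, whereas no read of that length fits both the array and RNA5SP172 exactly. A trimmed read of at most 43 nt that lies within their common stretch does fit both. The lengths of the reads after trimming were not examined.

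In hg38 the array genes spanned chr1:228610268-228646158, all on the minus strand. Their start positions were 2215 to 2242 bp apart, with a median of 2241 bp. Each was listed at 119 nt, while RefSeq gives 121 nt for all 17, with 2 more bases at the 3′ end of the RNA. The far end of the array lies within the RefSeq bounds of the protein-coding gene RHOU and of the pseudogene DUSP5P1. RNA5SP150 lies at chr3:181822872-181822990 on the minus strand and overlaps no other gene of the RefSeq table, its neighbours being the pseudogenes RN7SL703P, 9.17 kb away, and PSMG3P2, 24.5 kb away. RNA5SP172 lies at chr4:177457111-177457228 on the minus strand, within the bounds of the long non-coding RNA gene AGA-DT. Whether it falls in an exon or an intron of that gene was not analysed here.

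Nearly all 5S reads were assigned to the array. The array genes had totals of 103251 for RNA5S9, the lowest, 106289 for RNA5S17, the median, and 107105 for RNA5S10, the highest. RNA5SP150 had a total of 2602 counts, which was 0.144% of all counts on 5S names, and RNA5SP172 had 253, which was 0.0140%. RNA5SP172 was the member nearest to the minimum of 10. Just outside it were RNA5SP194 on chromosome 5, with 9 counts, and RNA5SP443 on chromosome 17, with 7. The other 2 names, both the generic 5S_rRNA on chromosome X, had 1 and 0 counts, and a count of 0 allows up to 3.

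**Figure D1:**
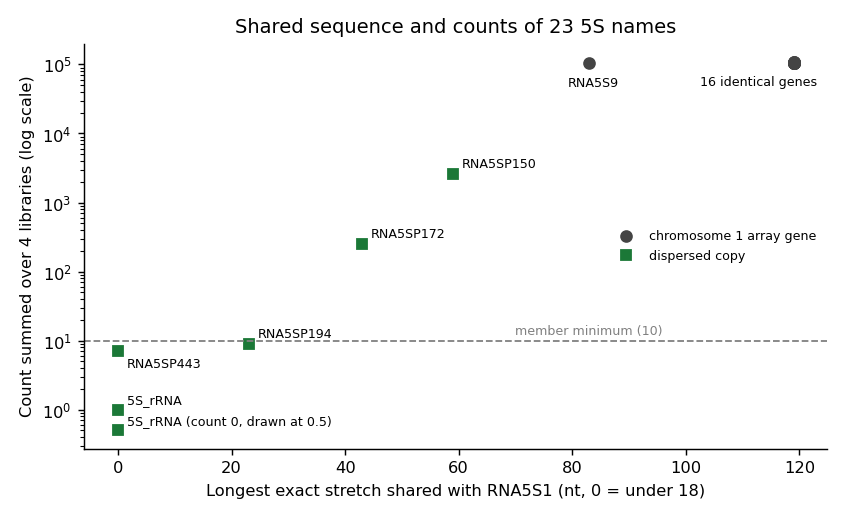
Longest exact stretch shared with RNA5S1, in nt, against the count summed over 4 libraries, on a log scale, for the 23 5S names. The dashed line is the minimum of 10 for a member, stretches under 18 nt are drawn at 0, and the 2 dispersed members lie between the array genes and the 4 names under the minimum.

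Members with a longer exact match to the array sequence had higher counts. The order was the 16 identical genes with 119 nt, RNA5S9 with 83 nt, RNA5SP150 with 59 nt and RNA5SP172 with 43 nt. Of the names under the minimum, RNA5SP194 shared 23 nt, and RNA5SP443 and both 5S_rRNA copies shared no stretch of 18 nt or more. Percent identity gave another order, since the 5S_rRNA copy with 0 counts was 79.2% identical to RNA5S1, against 78.3% for RNA5SP172 with 253 counts. The order by exact stretch describes a few copies of common descent, the minimum for a member was set on these same counts, and the order was not tested. The tables list only part of the 5S family: GENCODE names another 486 5S sequences of the type rRNA_pseudogene, none of which is a row of the tables, and 18 of them share an exact stretch of at least 50 nt with the array. A further 24 names of the type rRNA, the type of the 23 listed names, are also missing. Of these 24, 10 share an exact stretch of at least 18 nt with the array and 0 share one of at least 50 nt.

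The counts of the 17 array genes were almost even within each library. In 52X T4A replicate 1 the 16 identical genes had between 24716 and 25198 counts. They had 41401 to 42288 in replicate 2 of 52X T4A, 16911 to 17251 in replicate 1 of 52X WT and 22333 to 22809 in its replicate 2. Expressed against an even split, the spread of these 16 genes had a chi-square divided by its degrees of freedom of 0.699, 1.48, 0.633 and 0.750 in the same order, where counting error alone gives about 1 and a count copied to every gene gives 0. The SD between the identical genes was 0.530% to 0.609% of their mean. How reads that match several copies were placed is not given in the sources used here, and the counts of a given identical gene cannot be traced to its own locus. The rows of the 16 identical genes therefore hold in effect 1 measurement. RNA5S9 differs from them by 1 substitution, so only reads that cover it can be told apart. The 17 rows are not replicates of each other.

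**Figure D2:**
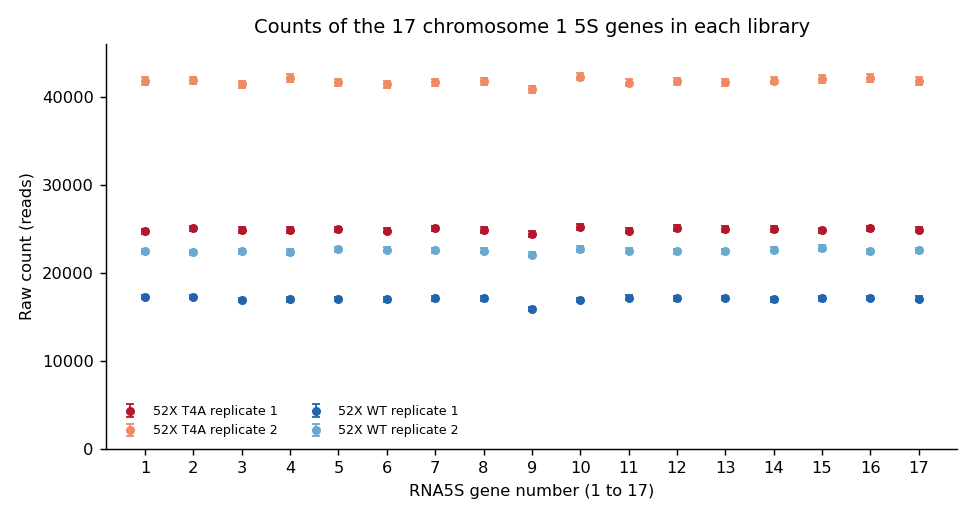
Raw read counts of RNA5S1 to RNA5S17 in each of the 4 libraries, with bars of 2 times the square root of the count, which cover counting error only. Within a library the genes lie on a level line, and RNA5S9 lies below it, furthest in 52X WT replicate 1.

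RNA5S9, the array gene with the substitution, fell below its neighbours in every library. Its counts were 24432 and 40872 for 52X T4A, against 15884 and 22063 for 52X WT. Relative to the mean of the 16 identical genes this was 2.01% less in 52X T4A replicate 1, with a 95% counting interval of 0.738% to 3.27%. The deficit was 2.21% (1.23% to 3.19%) in 52X T4A replicate 2 and 2.06% (0.718% to 3.38%) in 52X WT replicate 2. In 52X WT replicate 1 it was 6.97% (5.47% to 8.45%), and this interval did not overlap the other 3. The intervals cover counting error only, since the reads carried no molecular identifiers.

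RNA5SP150 set the same library apart. Its counts of 478 and 887 for 52X T4A, and of 759 and 478 for 52X WT, were 1.92% (1.75% to 2.10%), 2.12% (1.99% to 2.27%), 4.45% (4.14% to 4.77%) and 2.12% (1.94% to 2.32%) of the mean identical array gene. The interval of 52X WT replicate 1 did not overlap those of the other 3 libraries, which overlapped each other. RNA5SP172 showed another order, with 48 and 77 counts in 52X T4A and 54 and 74 in 52X WT. These were 0.192% (0.1451% to 0.2555%) and 0.184% (0.1473% to 0.2303%) of a mean identical gene in 52X T4A. In 52X WT they were 0.316% (0.2422% to 0.413%) and 0.329% (0.2616% to 0.4126%). The values of the groups did not overlap, but the counting intervals of 52X T4A replicate 1 and 52X WT replicate 1 did. The difference, 52X T4A minus 52X WT, of −0.134 percentage points was larger than the SD within either group (0.00586 and 0.00864, n = 2). Both SDs were small beside the counting intervals, so they understate the uncertainty of the values. An exact two-sided permutation test of 2 against 2 libraries gave p = 0.333, the smallest value it can give. For RNA5S9 and RNA5SP150, whose groups overlapped, the same exact test gave p = 0.667.

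**Figure D3:**
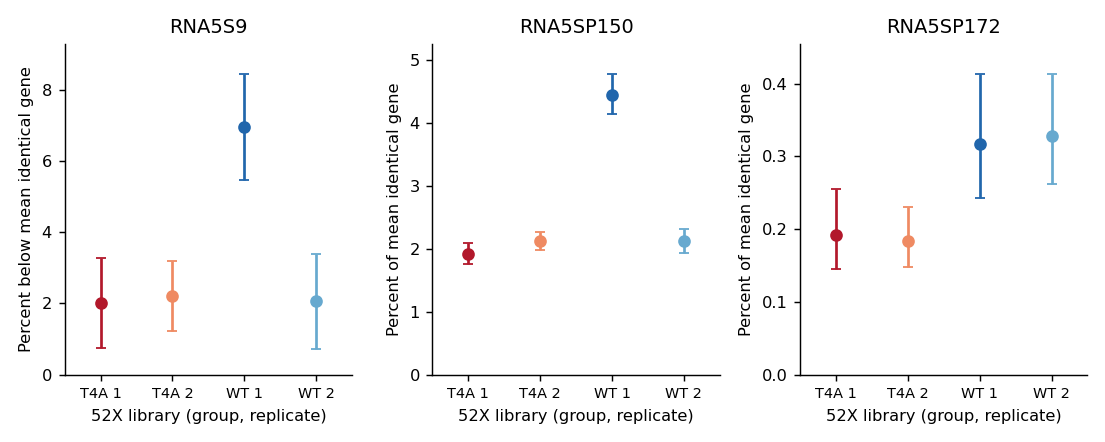
RNA5S9 as percent below the mean of the 16 identical array genes, and RNA5SP150 and RNA5SP172 as percent of that mean, in each library with 95% counting intervals. 52X WT replicate 1 lies apart for RNA5S9 (6.97% below) and RNA5SP150 (4.45%), while for RNA5SP172 both 52X WT libraries lie above both 52X T4A libraries. For RNA5SP172 the intervals of 52X T4A replicate 1 and 52X WT replicate 1 overlap.

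The levels of 5S members were then compared between 52X T4A and 52X WT, to ask how they differ when position 4 of the heptads cannot be phosphorylated. Array genes were 1.215- to 1.255-fold higher in 52X T4A and both dispersed copies were lower, but no member passed the test. Values are CPM, counts scaled to a common library size, with library sizes adjusted by the trimmed mean of M values (TMM), and in bulk RNA fewer cells and less RNA per cell cannot be told apart. A feature was called when its adjusted p (FDR) was below 0.05 and it changed by more than 1.5-fold in the quasi-likelihood F test of edgeR. Of 1480 features tested, 2 (0.135%) were called, and of the 19 members, all of which were tested, 0 were called. None of the 19 reached an unadjusted p below 0.05 in edgeR, and DESeq2 also called 0.

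RNA5S10, the array gene with the highest total, had 1592 and 1339 CPM in 52X T4A, against 1159 and 1206 CPM in 52X WT. Its mean was 1466 ± 179 CPM for 52X T4A, against 1183 ± 33.5 CPM for 52X WT (SD, n = 2). Both 52X T4A libraries were above both 52X WT libraries, although the difference was not called (log2 fold change 0.31, SE 0.21, edgeR FDR = 0.573). RNA5S17, of median total, had 1574 and 1324 CPM in 52X T4A against 1169 and 1197 CPM in 52X WT, with a log2 fold change of 0.29 (SE 0.21, edgeR FDR = 0.584). RNA5S9 had 1544 and 1295 CPM against 1089 and 1172 CPM. Its log2 fold change of 0.33 (SE 0.21, edgeR FDR = 0.552) was the highest of the array, and its 52X WT replicate 1 value is the one with the larger deficit described above.

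Over all 17 array genes the log2 fold change ran from 0.28 to 0.33, with a median of 0.29 beside −0.05 over all tested features, and the edgeR FDR from 0.552 to 0.590. All 17 had groups that did not overlap with 52X T4A higher. Of all tested features 18.9% did the same. Since the identical array rows hold 1 measurement and RNA5S9 shares exact stretches with them, the 17 agreeing rows are read as 1 result.

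RNA5SP150 had 30.2 and 28.1 CPM in 52X T4A, against 52.0 and 25.4 CPM in 52X WT. The groups overlapped, with 52X WT replicate 1 high and the other 3 libraries between 25.4 and 30.2 CPM, and the log2 fold change of −0.41 (SE 0.37, edgeR FDR = 0.680) turned to 0.10 without 52X WT replicate 1. RNA5SP172 had 3.03 and 2.44 CPM in 52X T4A, against 3.70 and 3.93 CPM in 52X WT, with groups that did not overlap, as in 21.2% of all tested features with 52X T4A lower. Its log2 fold change was −0.49 (SE 0.35, edgeR FDR = 0.584), on 48 to 77 counts per library.

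**Figure D4:**
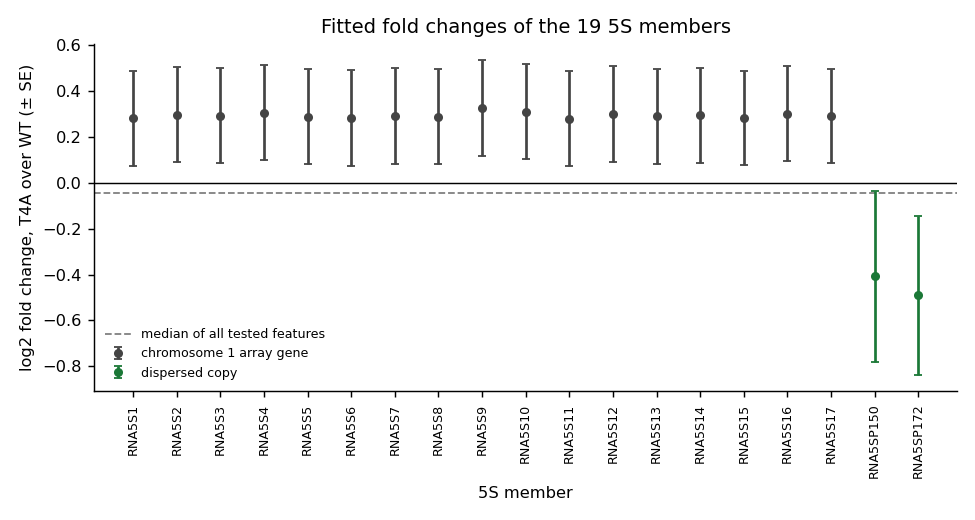
Log2 fold change of 52X T4A over 52X WT with its SE from edgeR for the 19 members, 17 array genes and 2 dispersed copies. The array genes lie between 0.28 and 0.33 and the dispersed copies at −0.41 and −0.49, beside a median of −0.05 over all 1480 tested features (dashed), and no member was called.

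Summed per library, the array held 423372 and 709637 counts in 52X T4A and 289064 and 382492 in 52X WT. As a share of each library's counts 52X T4A had 2.62% and 2.59%, against 1.79% and 1.996% for 52X WT. The shares of the 52X T4A libraries were close (SD 0.0168 percentage points, n = 2), and both were above both 52X WT libraries. On the TMM scale the sums were 26749 and 22476 CPM in 52X T4A and 19809 and 20318 CPM in 52X WT, which made the difference 0.29 on the log2 scale (exact two-sided permutation test, p = 0.333, the smallest possible with n = 2 in each group). Without 52X T4A replicate 1 it was 0.16. On library size alone it was 0.46. Fitted in edgeR with the array as 1 row, the log2 fold change was 0.33 (SE 0.15, unadjusted p = 0.0646, FDR = 0.509).

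The dispersed copies held 526 and 964 counts in 52X T4A and 813 and 552 in 52X WT. These were 33.2 and 30.5 CPM against 55.7 and 29.3 CPM, so 52X WT replicate 1 was high and the groups overlapped (log2 difference −0.34, exact two-sided permutation test, p = 1, n = 2 in each group). Without 52X WT replicate 1 the log2 difference was 0.12, and without 52X WT replicate 2 it was −0.81.

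The contrast of the array with the dispersed copies was taken within each library, where no scaling between libraries enters. RNA5SP150 supplied most of the dispersed counts, with a total of 2602 beside 253 for RNA5SP172, so the contrast is mainly one with that copy. RNA5SP150 shares an exact stretch of 59 nt with the array and RNA5SP172 one of 43 nt. Whether array reads were placed on either copy was not tested. The array held 805 and 736 counts for each count on a dispersed copy in 52X T4A, and 356 and 693 in 52X WT. The groups did not overlap, and the log2 ratio averaged 9.59 ± 0.09 for 52X T4A, against 8.95 ± 0.68 for 52X WT (SD, n = 2). The difference of 0.63 was smaller than the SD within 52X WT, and the exact two-sided permutation test gave p = 0.333, the smallest value it can give. 52X WT replicate 1 set most of it, since the difference was 0.15 without that library and 1.11 without 52X WT replicate 2.

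**Figure D5:**
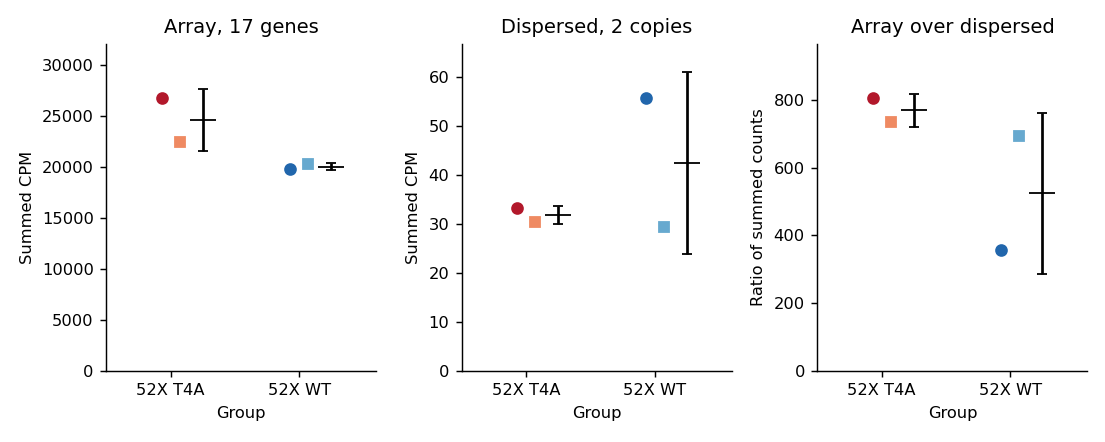
Summed CPM of the 17 array genes, summed CPM of the 2 dispersed copies, and the ratio of their summed counts, by group. Circles are replicate 1 and squares replicate 2, with the mean and SD of 2 libraries beside them, and 52X WT replicate 1 has the highest dispersed sum (55.7 CPM) and the lowest ratio (356).

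Other transcripts of Pol III were read from the same test. A list of 19 names covered Y RNAs, 7SK, 7SL, U6, U6atac, genes with a vault RNA symbol (VTRNA) and BCYRN1. Of the names, 17 were found in 18 rows, of which 16 were tested. None was called in either direction by edgeR, and DESeq2 also called 0 of them. The median log2 fold change of the list was −0.11, with 2 rows above 0 and 14 below, beside 682 above and 798 below over all tested features. This direction flipped with the scaling, since the list median was 0.06 with upper quartile factors and 0.07 on library size alone, with 10 rows above 0 and 6 below in each. Those settings also moved the median of all features up, from −0.05 to 0.13 and 0.14. The list median lay below the median of all features in the main test and in both of these settings. VTRNA1-2, a vault RNA, had 312 and 302 CPM in 52X T4A against 415 and 497 CPM in 52X WT (log2 fold change −0.57, SE 0.23, edgeR FDR = 0.427). RNY1, a Y RNA, had 355 and 234 CPM against 627 and 364 CPM (log2 fold change −0.75, SE 0.32, edgeR FDR = 0.460). Its highest value was that of 52X WT replicate 1, and 52X WT replicate 2 lay close to 52X T4A replicate 1. The rows of VTRNA1-2 and RNY1 had an unadjusted p below 0.05, as did 6.28% of all tested features with 52X T4A lower. Both were picked after their values were seen. RN7SL1, the RNA of the signal recognition particle, had 106 and 87.7 CPM against 108 and 95.9 CPM. The 2 listed rows of RN7SK carried the same counts, so 1 measurement entered the 14 rows below 0 as 2. Whether the list differs from the array was not tested.

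The only 5.8S rRNA row was RNA5-8SP, whose symbol has the form of a pseudogene. 5.8S rRNA itself is cut from the precursor made by RNA polymerase I, and whether the reads of this row come from that precursor was not tested. RNA5-8SP had 34.0 and 32.8 CPM in 52X T4A against 18.8 and 37.0 CPM in 52X WT (log2 fold change 0.26, SE 0.37, edgeR FDR = 0.825). Its groups overlapped, and 52X WT replicate 1 was again the library apart, here the lowest.

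A list of 12 miRNAs typical of liver, muscle, blood and neurons was summed to check the cell type. It gave 90.6 to 103 CPM for 52X T4A, against 41.9 to 43.7 CPM for 52X WT, most of it from the muscle miRNA genes MIR1-1, MIR1-2 and MIR206, with 79.8 to 95.3 CPM for 52X T4A, against 30.1 to 32.8 CPM for 52X WT. Of its 13 rows, 5 were higher in 52X T4A without overlap and 0 lower, beside 18.9% and 21.2% of all tested features, and none of the 12 names was at 0 in all libraries. The 13 rows were taken without the filter on low counts that the tested features had passed, so the 2 shares are not strictly alike. The blood and immune miRNAs summed to 2.53 CPM in both 52X T4A libraries, against 0.822 and 1.75 CPM for 52X WT. Liver and neuron miRNAs overlapped between the groups, at 0.948 and 0.253 CPM for 52X T4A against 0.617 and 0.531 CPM for liver, and at 4.36 and 8.05 CPM against 12.1 and 6.80 CPM for neurons. The muscle and blood sums thus moved with the groups, and their part in the 5S values was not tested.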

How the data were processed

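For each of the 4 libraries the authors deposited raw counts of reads per feature, not normalized. The submitters' processing notes name cutadapt 4.6, Bowtie2 2.3.5.1, featureCounts 1.5.0 and hg38, and the handling of reads that match several places is not given in the sources used here. Symbols came from GENCODE v44lift37 by Ensembl identifier, and coordinates are those of the tables. Features without a GENCODE name took the RefSeq symbol at the same position (908 features), and 575 stayed without a name. Membership used GENCODE symbols only, whereas the other lists were matched on either kind of symbol. The sequences of the copies are not reported here.

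Counts were tested over the whole table with edgeR 4.0.16 in R 4.3.3 (quasi-likelihood F test, TMM factors, filterByExpr at a minimum count of 10), with Benjamini-Hochberg adjustment over all 1480 tested features. The standard error is the log2 fold change divided by the square root of F. Single values per library were compared by exact permutation tests, and ratios of counts carry 95% counting intervals on the log scale. The test was checked on simulated counts. Named array genes were those of highest, median and lowest total. Named dispersed copies were up to 6 of highest mean CPM, which took in both, plus those just outside the minimum. The named Pol III rows were picked after their values were seen. The members and lists were chosen with earlier results of these data known. Alternatives were other scaling factors, filters, DESeq2 1.42.0, a robust fit, a replicate block, other membership rules and leaving out each library. limma 3.58.1 was loaded with edgeR only.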

Additional observations from a re-analysis of the deposited data

How the results depend on the processing

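No 5S member was called under any of the 15 alternative fits or at the FDR alone, and all 17 array genes stayed above 0 in each of the 14 that kept them as rows. Their median log2 fold change was 0.45 with upper quartile factors and 0.46 on library size alone, settings that moved the median of all features by 0.17 and 0.18 (log2), and relative to that median it was 0.34 in the main test, 0.33 and 0.32. The log2 difference of the summed array counts was 0.45 and 0.46 under the same settings and 0.48 as a share of counts without the 5 most abundant features. When each library was left out in turn, the array median ran from 0.14 to 0.43. RNA5SP150 reversed to 0.10 without 52X WT replicate 1, and was −0.83 without 52X WT replicate 2, at its lowest edgeR FDR of 0.0579. The number of features called in the whole table was 2 and became 9 on library size alone, 0 with factors from miRNAs alone, 8 with factors from snoRNAs alone, 29 with no filter on low counts, 30 with DESeq2 and 0 with the array and dispersed sums as 1 row each. Leaving out a library gave 4 to 218. The causes were not tested. The labels do not say that replicate numbers pair libraries, and deviations of same-numbered libraries correlated at 0.0946 across features. With the replicate block 18 features were called, and the array median was 0.29. Adding the 4 pseudogenes named by RefSeq position, chosen after seeing the data, made the array to dispersed difference 0.59. The 48 to 77 counts of RNA5SP172 per library, and 2 libraries per group, limit what could be detected.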

Other observations

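A further 11 rows lie exactly at 5S pseudogenes of the RefSeq table (GRCh38.p14) without a GENCODE 5S name, and 4 of them had at least 10 counts. RNA5SP532 on chromosome 20 had 34 and 48 counts in 52X T4A and 6 and 15 in 52X WT, so the groups did not overlap in CPM (log2 fold change 1.54, SE 0.49, edgeR FDR = 0.348), which was higher than any member. RNA5SP530 on chromosome 9 had 24 and 69 counts in 52X T4A and 80 and 33 in 52X WT, with the highest CPM in 52X WT replicate 1, as for RNA5SP150 (log2 fold change −0.92, SE 0.53, edgeR FDR = 0.499). RNA5SP528 on chromosome 20 had 17, 41, 14 and 24 counts and RNA5SP343 on chromosome 11 had 10, 19, 10 and 10 in the order 52X T4A replicates 1 and 2 and 52X WT replicates 1 and 2, with log2 fold changes of 0.09 and 0.03. None was called. Their sequences were not compared with the array here.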
